A study of Canis lupus familiaris with 6 samples.

Results

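Antigen receptor genes, the segments that build immunoglobulins and T cell receptors, were compared in whole blood of Beagle dogs fed a casein phosphopeptide-selenium chelate (CPP-Se) and of control dogs fed without it. RNA of 3 dogs per group, taken on day 30 of feeding, was sequenced as 1 library per dog. The control dogs had the same snack without the chelate, and the labels name no other treatment or genotype. Members were chosen by the annotation in the deposited table, either by a gene biotype of an immunoglobulin or T cell receptor segment or by a description naming an immunoglobulin heavy, kappa or lambda chain or a T cell receptor alpha, beta, gamma or delta chain, and by an FPKM (fragments on a gene, scaled by its length and by library size) above 0 in at least 1 dog. This took in 148 of the 31512 genes of the table. Descriptions that spell "T-cell receptor" with a hyphen were read as T cell receptor; they supplied 32 of the 148 members, and without them 116 remained. The only measured value the choice used was detection in any dog. A further 44 genes met the description and had 0 reads in all 6 dogs, while 15 members entered on a single read over the 6 dogs. An observed 0 leaves an expected count of up to 3 reads per dog possible.

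A lymphocyte assembles its receptor by joining one variable segment, in some chains a diversity segment, and one joining segment to a constant region. B cells do so at the heavy (IGH), kappa (IGK) and lambda (IGL) loci, and the product is a surface receptor or, in plasma cells, a secreted antibody. T cells do so at the alpha and delta (TRA/TRD), beta (TRB) and gamma (TRG) loci. A constant gene is shared by many clones, also where a locus holds several constant genes. Each variable segment, in contrast, is transcribed at a high level mainly in the clones that have joined it. Blood RNA therefore gives the constant genes as a sum over many clones and the variable segments as a sample of the repertoire.

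The 148 members comprised 25 variable segments of IGH, 26 of IGK, 54 of IGL, 13 of TRA/TRD, 14 of TRB and 1 of TRG, together with 2 constant genes of IGL, 2 of TRA/TRD, 1 of TRB and 4 of TRG, and 3 joining segments of TRA/TRD. Another 2 members of IGL were annotated as lambda-like polypeptides. The remaining member, HSPA5, is the chaperone BiP, which entered because its description calls it an immunoglobulin heavy chain-binding protein. It is no receptor segment and is left out of the loci. Its mean was 49.5 FPKM in the control dogs and its log2 fold change was -0.02 (SE 0.21, limma adjusted p = 0.973). In the dog genome of Ensembl release 100, 24 of the 25 IGH members and all 18 TRA/TRD members lay on chromosome 8, 54 of the 58 IGL members on chromosome 26, all 15 TRB members on chromosome 16 and all 5 TRG members on chromosome 18. Only 12 of the 26 IGK members lay on chromosome 17, and the others were on unplaced scaffolds. Most segments carry no symbol, and the table describes them by the most similar known protein. As many as 34 members thus share the description immunoglobulin lambda variable 1-40, and such near-identical copies can share reads, so the level of a single segment is uncertain. The spans of 71 members overlapped another member on the same strand, and how shared reads and strand were counted is not given in the sources used here.

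Reads on genes, recovered from the FPKM, were 6598173 to 8067034 per dog. Library size as implied by the FPKM was 0.882 to 1.65 times these reads. CPP-Se replicate 2 had the highest ratio and the lowest share of hemoglobin, at 36.6% against 48.7% to 55.9% in the other dogs. A member had a median of 34.5 reads over all 6 dogs, and 50 members had under 10. Of the 148 members, 85 had a mean of at least 1 FPKM and were tested, and 63 fell below this filter, among them all 5 of TRG. The labels call the replicates biological, and p-values refer to the spread between these dogs.

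Summed over its members and scaled to the implied library size, the TRB locus was the only one of the 6 whose values did not overlap between the groups. TRB held 68.7, 77.9 and 44.3 RPM (reads scaled to the implied library size) in the controls, given here and below in the order of replicates 1, 2 and 3, and 143, 99.1 and 134 with CPP-Se. All 3 CPP-Se dogs lay above all 3 control dogs, and the ratio of the means was 1.97. Most TRB reads lay on the constant model ENSCAFG00000014478. It held 360, 405 and 274 of the 469, 497 and 356 TRB reads in the controls. With CPP-Se it held 784, 1045 and 671 of 918, 1322 and 822. The locus sum and this gene are therefore largely 1 measurement. Of all tested single genes, 23.0% had groups that did not overlap. TRA/TRD held 64.6, 82.3 and 38.7 RPM in the controls and 81.8, 89.6 and 120 with CPP-Se, a ratio of 1.57, with CPP-Se replicate 1 just below control replicate 2. Whether TRA/TRD separated depended on the scaling. By total reads on genes the controls held at most 72.6 and the CPP-Se dogs at least 73.1, and without hemoglobin the values were 77.3 and 80.8, whereas by median of ratios and upper quartile the groups overlapped. TRB separated under all 4 of these scalings, and IGH, IGK, IGL and TRG under none. TRG was low in every dog, at 2.24 to 3.66 RPM in the controls and 2.5 to 7.68 in the CPP-Se dogs. The immunoglobulin loci showed no separation of the groups. IGH had a mean of 145 ± 66.3 (SD, n = 3) RPM in the controls and 107 ± 85.6 (n = 3) with CPP-Se, IGK had 21.3 ± 10.9 and 10.1 ± 3.73, and IGL had 377 ± 89.0 and 455 ± 168. In whole blood, more cells of a type and more RNA per cell cannot be told apart.

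**Figure D1:**
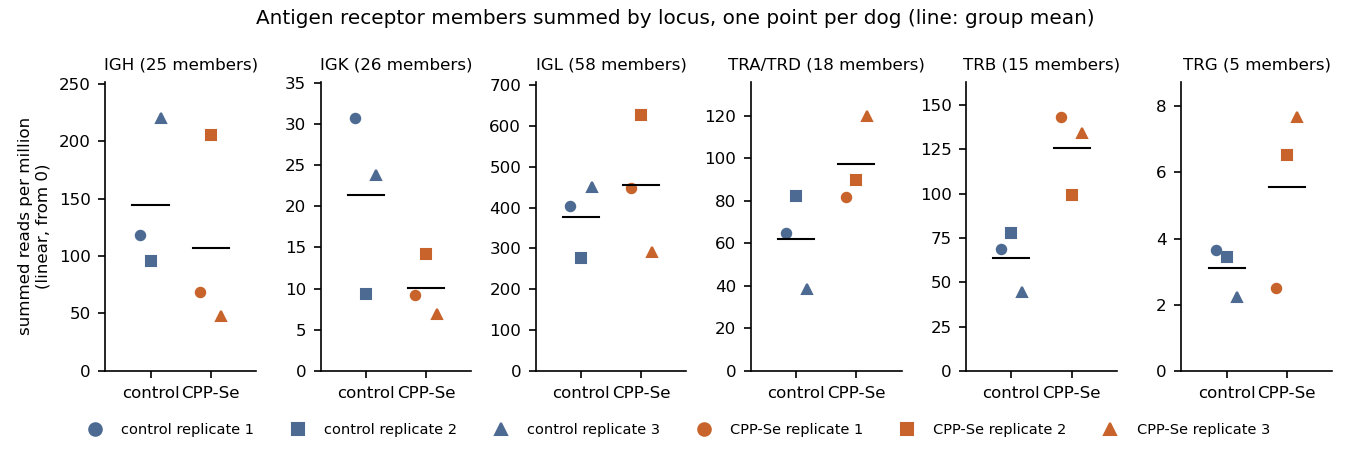
RPM summed over the members of each locus (linear axes from 0, a separate scale per locus), with 1 point per dog and a line at the group mean. On this scaling, by implied library size, TRB is the only locus in which the CPP-Se dogs (99.1 to 143) and the control dogs (44.3 to 77.9) do not overlap.

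No member passed the test between the groups. By limma on log2(FPKM + 1) with Benjamini-Hochberg adjustment over all 9847 tested genes, 0 of the 85 tested members were called, which needed a fold change of 1.5 or more besides an adjusted p under 0.05, where 3 genes in all (0.0305%) were called. Limma-voom on the reads likewise called 0 members, beside 0.0102% of all tested genes, or 1.58% with sample quality weights. At an unadjusted p under 0.05 there were 13 members, of which 7 (8.24% of the tested members) were higher with CPP-Se, against 6.87% of all tested genes, and 6 (7.06%) were lower, against 9.10%. These shares were near the background. Groups did not overlap for 10 of the 85 members (11.8%; 6 higher, against 10.4% of all tested genes, and 4 lower, against 12.6%), where 23.0% of all tested genes did not overlap in either direction. A negative binomial fit to the reads, added once the data had been seen, called 3 members where it called 8.18% of all tested genes. They were a TRB and an IGL constant gene, higher with CPP-Se as were 3.42% of all tested genes, and an IGL variable segment, lower as were 4.75%. The median log2 fold change was -0.05 over the tested members and -0.00433 over all tested genes.

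The direction of the tested members was counted by locus, and the difference between loci was not tested. All 9 tested members of TRB had a log2 fold change above 0, from 0.30 to 1.04 with a median of 0.64, where 49.6% of all tested genes did, although with sample quality weights in limma-voom it was 8 of 9. In TRA/TRD 4 of 8 lay above 0, in IGL 18 of 41, in IGH 4 of 13 and in IGK 3 of 13. The IGH and IGK counts moved with single dogs: without CPP-Se replicate 3 they were 9 and 7 of 13, with medians of 0.12 and 0.08, and without control replicate 3 they were 7 and 5 of 13. A member that reached the filter of 1 FPKM in 1 group alone had to differ to be tested, which was so for 17 of the 85 (20%; 11 through the controls, 6 through CPP-Se), against 6.74% of all tested genes. They included 4 of the 10 members without overlap. Among the 68 that reached it in both groups, 8 of 8 in TRB lay above 0, 2 of 4 in TRA/TRD, 16 of 35 in IGL, 4 of 13 in IGH and 2 of 7 in IGK. These members share reads, cells and dogs and are not independent, so the counts are a description. Each of the 4 other scalings left all 9 TRB members above 0.

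**Figure D2:**
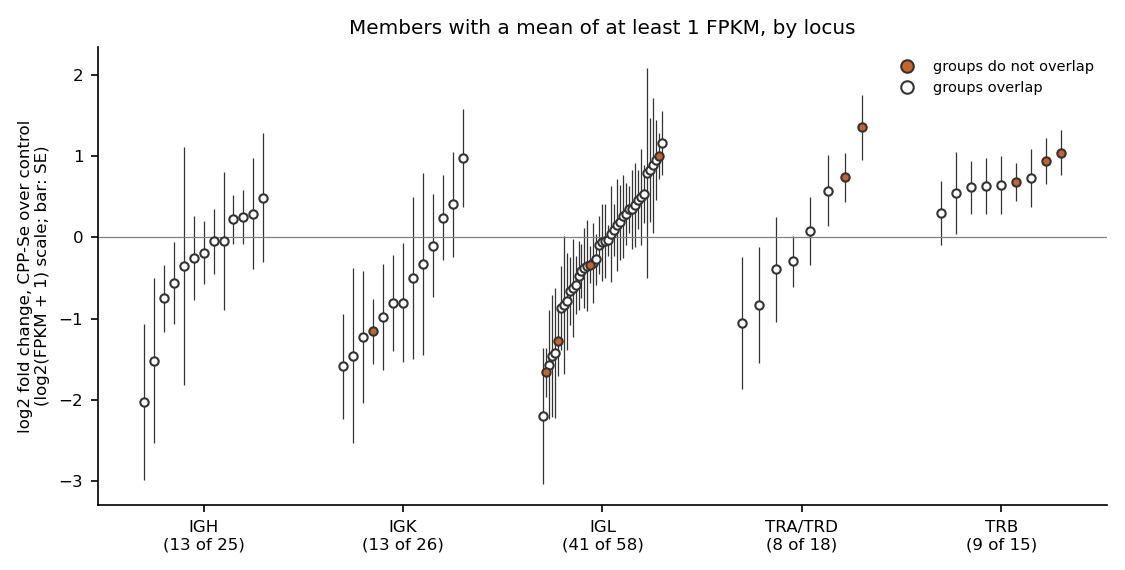
Log2 fold change of CPP-Se over control on the log2(FPKM + 1) scale for the members with a mean of at least 1 FPKM, 1 point per member sorted within its locus, with bars of 1 SE. Filled points are members whose groups do not overlap; all 9 TRB points lie above 0, and the immunoglobulin loci spread to both sides, down to -2.20 in IGL.

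The TRB constant region was measured by ENSCAFG00000014478, a model on chromosome 16 (6765554 to 6925374, minus strand) that carries both a constant-type and a variable-type immunoglobulin domain and spans 9 other members. The beta chain pairs with the alpha chain in the receptor of most T cells. Its FPKM was 33.3, 40.1 and 21.5 in the controls and 77.4, 49.5 and 69.3 with CPP-Se. Every CPP-Se dog lay above every control dog, on 274 to 405 reads in the controls and 671 to 1045 with CPP-Se. The log2 fold change was 1.04 (SE 0.28, limma unadjusted p = 0.00603, adjusted p = 0.180). Across the alternatives tried the log2 fold change kept its sign, from 0.80 to 1.23, and the adjusted p ran from 0.00328 in the negative binomial model to 0.455.

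The alpha constant gene ENSCAFG00000025128 (chromosome 8, 2920146 to 2951815, plus strand) was the most abundant T cell receptor member. Its FPKM was 76.2, 96.7 and 46.6 in the controls and 103, 107 and 148 with CPP-Se, again without overlap, though control replicate 2 and CPP-Se replicate 1 were close. Its log2 fold change was 0.74 (SE 0.30, limma adjusted p = 0.288). The delta constant gene ENSCAFG00000011098 (chromosome 8, 2753534 to 2866344), part of the receptor of gamma-delta T cells, was low, at 1.22, 0.434 and 1.15 FPKM in the controls and 0.432, 3.04 and 2.86 with CPP-Se. CPP-Se replicate 1 was the lowest of all 6 dogs, and the log2 fold change of 0.57 (SE 0.44) had a limma adjusted p of 0.571. It reached 1 FPKM on average in the CPP-Se group alone. The 4 gamma constant genes fell below the filter of 1 FPKM. The most read of the 4, ENSCAFG00000041010 (chromosome 18, 11332642 to 11567476), had 11, 16 and 14 reads in the controls and 14, 65 and 43 with CPP-Se, or at most 0.975 FPKM over a model of 7209 bases. ENSCAFG00000032048 had 9, 0 and 1 reads in the controls and 0, 12 and 0 with CPP-Se, and ENSCAFG00000030206 had 0 to 6 reads in every dog, so that for these 2 a difference was not detectable at this depth.

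**Figure D3:**
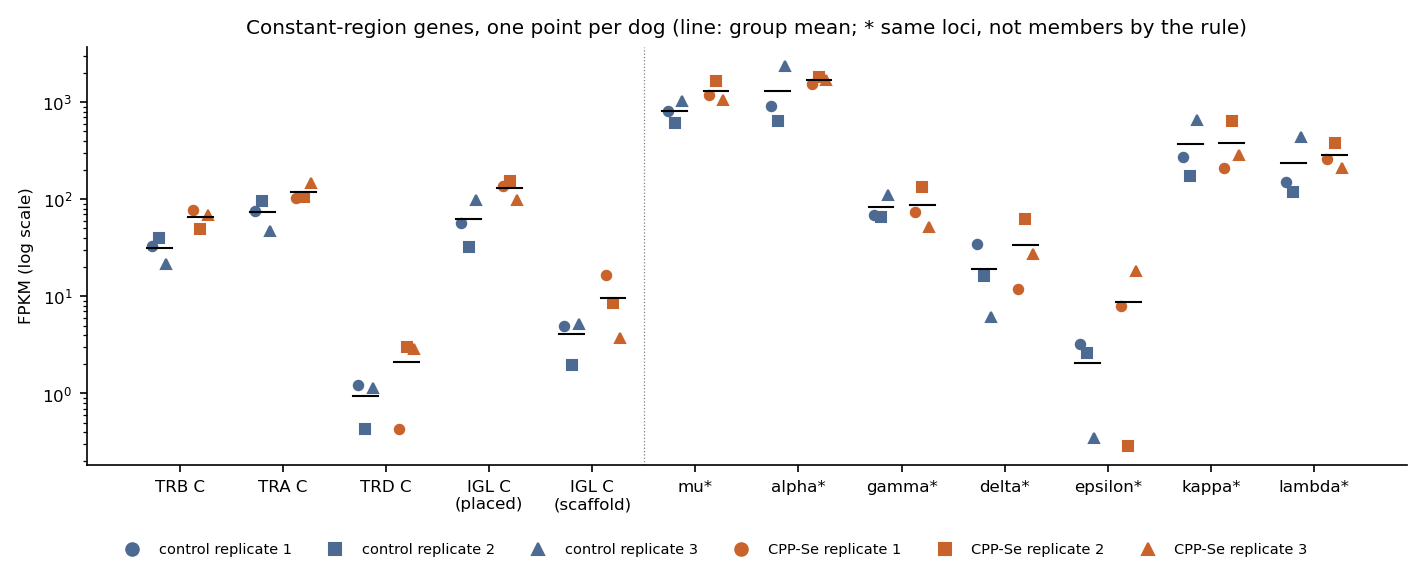
FPKM (log axis) of the constant-region genes, 1 point per dog and a line at the group mean. Genes marked with an asterisk lie in the same loci but are not members; the TRB and TRA constant genes have all CPP-Se dogs above all control dogs, while the epsilon gene runs from 0.287 to 18.3 FPKM within the CPP-Se group.

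The 8 tested TRB variable segments had few reads each, and each had a log2 fold change above 0. With no filter on level, 12 of the 15 TRB members lay above 0 and 3 below. The most abundant, ENSCAFG00000029181 (chromosome 16, 7015053 to 7015804), had 7.65, 10.4 and 3.25 FPKM in the controls and 10.3, 9.18 and 12.8 with CPP-Se, with control replicate 2 inside the CPP-Se range. ENSCAFG00000003811 had 4.96, 3.91 and 1.33 FPKM in the controls and 6.12, 4.68 and 5.24 with CPP-Se. TRBV19 had 3.81, 2.71 and 2.15 FPKM in the controls and 5.41, 2.92 and 9.20 with CPP-Se. In each of these 3 segments a single CPP-Se dog fell within the control range or a single control dog within that of CPP-Se.

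In 2 of the 8 tested TRB variable segments the groups did not overlap, where 10.4% of all tested genes were higher without overlap, and nothing is read from a count this small. TRBV24-1 (chromosome 16, 6825707 to 6826525) had 0.783, 0.838 and 0.443 FPKM in the controls and 3.34, 2.14 and 1.46 with CPP-Se, on only 2 to 3 reads per control dog and 5 to 16 per CPP-Se dog, with a log2 fold change of 0.94 (SE 0.29, limma adjusted p = 0.199). It reached the filter of 1 FPKM through the CPP-Se group alone, so that it had to differ to be tested. TRBV25-1 (6820510 to 6821112) had 1.59, 1.70 and 3.03 FPKM in the controls and 3.81, 4.27 and 3.54 with CPP-Se, with a log2 fold change of 0.68 (SE 0.23, limma adjusted p = 0.239). Summed over the 14 TRB variable segments, the 82 to 109 reads of the control dogs and the 134 to 277 of the CPP-Se dogs gave 10.2 to 16 and 20.8 to 24.7 RPM, without overlap, and the ratio of the means was 1.64.

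**Figure D4:**
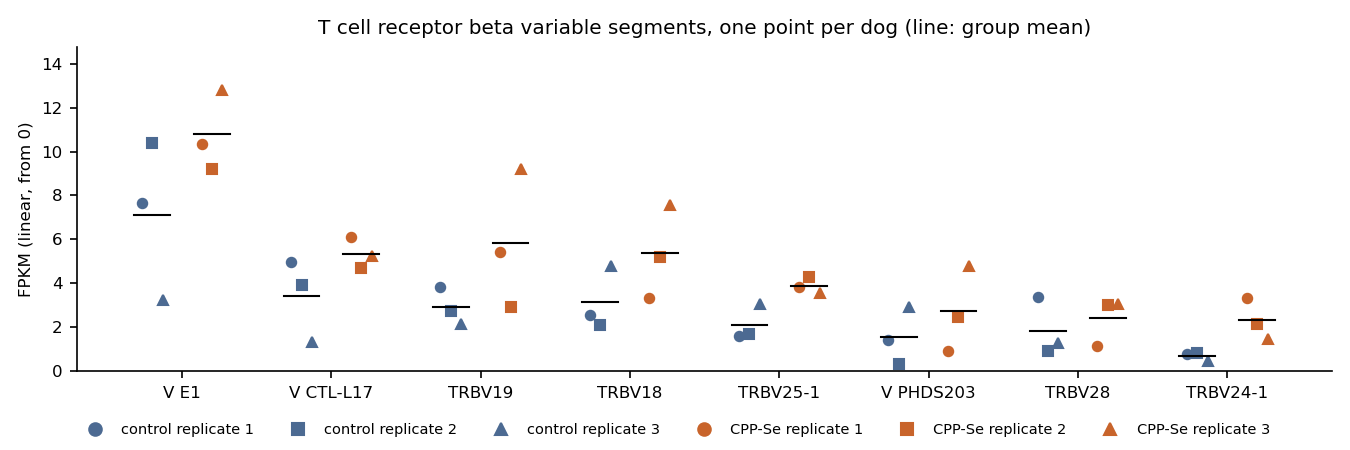
FPKM (linear axis from 0) of the 8 tested TRB variable segments, ordered by their mean, with 1 point per dog and a line at the group mean. Each CPP-Se mean lies above the control mean, and the points of TRBV25-1 and TRBV24-1 do not overlap between the groups.

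The 13 TRA/TRD variable segments had few reads. They summed to 7.21 ± 3.67 (SD, n = 3) RPM in the controls and 7.90 ± 1.43 (n = 3) with CPP-Se, a ratio of 1.1, where the 2 constant genes of the locus gave 1.64, and the difference between these ratios was not tested. Within each group the variable and the constant sums had the same order of dogs. The segment ENSCAFG00000024337 (chromosome 8, 2311539 to 2312292) had 3, 0 and 4 reads in the controls and 5, 26 and 8 with CPP-Se, or 1.15, 0 and 1.31 FPKM against 2.05, 5.12 and 3.43. Its groups did not overlap, and its log2 fold change of 1.35 (SE 0.40) had a limma adjusted p of 0.192, but it too reached the filter through the CPP-Se group alone. The most read one, ENSCAFG00000031023 (2356960 to 2358745), had 1.06, 2.36 and 0.749 FPKM in the controls and 1.03, 0.903 and 0.689 with CPP-Se. TRAV34 and TRAV21 were each undetected in CPP-Se replicate 1 and highest or near their highest in CPP-Se replicate 3, at 4.06 and 4.49 FPKM. The 3 joining segments held at most 4 reads each.

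Lambda segments made up most of the immunoglobulin reads of the members. Lambda is known as the dominant light chain of the dog. The constant gene ENSCAFG00000047066 (chromosome 26, 27620229 to 27628557, plus strand) had 56.6, 32.2 and 99.1 FPKM in the controls and 138, 155 and 97.5 with CPP-Se. CPP-Se replicate 3 lay just below control replicate 3, so the groups overlapped, and the log2 fold change was 1.16 (SE 0.40, limma unadjusted p = 0.0196, adjusted p = 0.235, and 0.0366 in the negative binomial model). Its counterpart on an unplaced scaffold, ENSCAFG00000030739, had 4.98, 1.95 and 5.22 FPKM in the controls and 16.6, 8.5 and 3.71 with CPP-Se, with a log2 fold change of 0.95 (SE 0.49, limma adjusted p = 0.396). The 54 lambda variable segments together held 296 ± 55.2 (SD, n = 3) RPM in the controls and 310 ± 135 (n = 3) with CPP-Se, a ratio of 1.05. The ratio was 2.09 for the 2 constant members and 1.22 for the 2 lambda constant genes outside the rule, which had more reads, and the groups overlapped for both pairs.

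Among the lambda variable segments, an IGLV1-44-like gene found only by the authors' assembly (chromosome 26, 26796950 to 26797529) was the most abundant. Its FPKM was 63.0, 45.7 and 81.1 in the controls and 87.8, 142 and 57.6 with CPP-Se. ENSCAFG00000042504 (26746348 to 26761041) was nearly level over the 6 dogs, at 48.8, 50.3 and 59.8 FPKM in the controls and 44.0, 56.8 and 54.5 with CPP-Se. In contrast, an IGLV1-40-like gene from the assembly (26928754 to 26929291) ranged from 11.1 FPKM in CPP-Se replicate 3 to 75.6 in control replicate 3.

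ENSCAFG00000049273, an IGLV1-40-like segment (chromosome 26, 25181863 to 25182219, minus strand), had the smallest limma p among the tested members. Its FPKM was 6.98, 8.34 and 8.01 in the controls and 0.875, 1.68 and 3.2 with CPP-Se, on 17 to 23 and 2 to 8 reads. The control dogs were close to each other and all above the CPP-Se dogs, and the log2 fold change was -1.66 (SE 0.30, limma unadjusted p = 0.000566, adjusted p = 0.138, and 0.0145 in the negative binomial model). Across the alternatives its log2 fold change ran from -2.21 to -1.38. ENSCAFG00000029467 (26270240 to 26326587) had 4.47, 2.22 and 2.44 FPKM in the controls and 0.170, 2.13 and 0.178 with CPP-Se, where CPP-Se replicate 2 came close to the controls, with a log2 fold change of -1.27 (SE 0.43, limma adjusted p = 0.235), and it reached the filter through the controls alone. ENSCAFG00000029344 differed little between the groups, with a log2 fold change of -0.34 (SE 0.22, limma adjusted p = 0.513). The IGLV7-43-like segment ENSCAFG00000043751 had the opposite order, with 3.92, 1.53 and 3.03 FPKM in the controls and 5.70, 8.03 and 5.57 with CPP-Se, and a log2 fold change of 1.00 (SE 0.28, limma adjusted p = 0.185). Both of the last named lie on unplaced scaffolds.

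The kappa variable segments were the sparsest of the immunoglobulin loci, with 42 to 210 reads per dog over all 26. The IGKV2-30-like ENSCAFG00000031795 (chromosome 17, 37550426 to 37551859) had 3.10, 0.663 and 26 FPKM in the controls and 7.26, 3.65 and 0.691 with CPP-Se, so that control replicate 3 held 62.9% of its summed level. ENSCAFG00000049391, on a scaffold, had 26, 1.46 and 4.26 FPKM in the controls and 0.973, 4.44 and 1.53 with CPP-Se, with control replicate 1 apart from the rest. ENSCAFG00000049138 ranged from 0 to 7.75 FPKM with both groups mixed. For ENSCAFG00000043200 the groups did not overlap, on 7, 3 and 3 reads in the controls and 0, 0 and 2 with CPP-Se (log2 fold change -1.16, SE 0.40, limma adjusted p = 0.245), and both groups were near the floor of 3 reads. It reached the filter through the controls alone.

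The heavy variable segments were led by models that differ widely between dogs. ENSCAFG00000046771 (chromosome 8, 73027333 to 73028869, minus strand), described as an IGHV4 orphon-like gene, had 1.01, 6.89 and 76.4 FPKM in the controls and 0.858, 41.7 and 6.40 with CPP-Se. One dog of each group thus held nearly all of its 1842 reads. The IGHV3-23-like ENSCAFG00000044771 (74052039 to 74052347) had 26.5, 18.3 and 25.0 FPKM in the controls and 3.03, 55.3 and 1.59 with CPP-Se. The group means were 23.3 and 20.0 FPKM. Its log2 fold change of -1.52 had a limma adjusted p of 0.513, and it was -0.21 in the negative binomial model (adjusted p = 0.958). With single dogs left out it ran from -0.67 without CPP-Se replicate 3 to -2.89 without CPP-Se replicate 2, where it was the 1 member called (limma adjusted p = 0.0368). ENSCAFG00000045680 (73586711 to 73595785) had 34.0, 18.4 and 15 FPKM in the controls and 19.3, 28.1 and 11.4 with CPP-Se, with the groups mixed.

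Use of the segments was then compared within each locus, since the share of a dog's own variable reads does not depend on the scaling between libraries. In IGH the IGHV3-33-like model ENSCAFG00000028509, a long model (73477691 to 73886755, 4041 bases) that overlaps 6 other members, was the most read in 5 of 6 dogs, with 28.2% of the IGH variable reads in CPP-Se replicate 3 (95% Wilson interval 23.3 to 33.6) and 64.9% in control replicate 1 (61.5 to 68.1). In control replicate 3 the most read was ENSCAFG00000046771, with 50.5% (48.2 to 52.8). In IGK 4 different segments took the lead in the 6 dogs, from 16.9% in CPP-Se replicate 2 (12.3 to 22.9) to 51.8% in control replicate 3 (44.8 to 58.8). In IGL the leading segment held 10.3% to 15% of the reads in every dog, known to within 2.08 percentage points. The share was 10.3% to 11.8% in the controls and 14.3% to 15% with CPP-Se, and the IGLV1-44-like assembly gene was the leader in all 3 CPP-Se dogs and in control replicate 3. Members taken by biotype alone leave out the assembly genes and also the segments annotated as protein coding. Among the latter is ENSCAFG00000047763, the leader in control replicates 1 and 2. With that set the difference of the means (CPP-Se minus control) went from 3.64 to -0.36 percentage points, so the order of the groups rests on the member set. In TRB, on 82 to 277 variable reads per dog, the leading segment held 22.0% to 35.9%, known to within 9.62 points. These intervals cover counting error only.

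The use that pairs of dogs had in common was described for each locus. Summing the smaller of the 2 shares over all segments, a pair of dogs had in common a median of 76.3% of IGL use between the groups (72.4% to 77.6% over 9 pairs) and 78.0% within a group (71.3% to 86.7% over 6 pairs). In TRB the medians were 76.6% between and 74.4% within the groups. In IGH they were 67.6% and 59.2%, and in IGK 30.0% and 31.3%. Over all pairs IGK ran from 19.8% to 63.8% and TRB from 57.8% to 81.9%, so single pairs of the 2 loci overlapped, and the difference between loci was not tested. In each locus the medians within and between the groups differed by less than the range over pairs. IGK, with the lowest medians, also had the fewest reads of the immunoglobulin loci. In IGK, 9 of the 17 members with at least 10 reads in all had over 50% of their summed level in a single dog, against 2 of 14 in IGH, 3 of 43 in IGL, 0 of 9 in TRA/TRD, 0 of 11 in TRB and 1 of 3 in TRG. The IGKV2D-28-like ENSCAFG00000045261, chosen after its values were seen, had 43 reads in control replicate 1 and 0 in the other 5 dogs, where an expected count of up to 3 reads in each remains possible. The IGLV1-40-like ENSCAFG00000046583, also chosen afterwards, had 31 and 15 reads in control replicates 1 and 2 and 0 in control replicate 3 and all CPP-Se dogs.

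**Figure D5:**
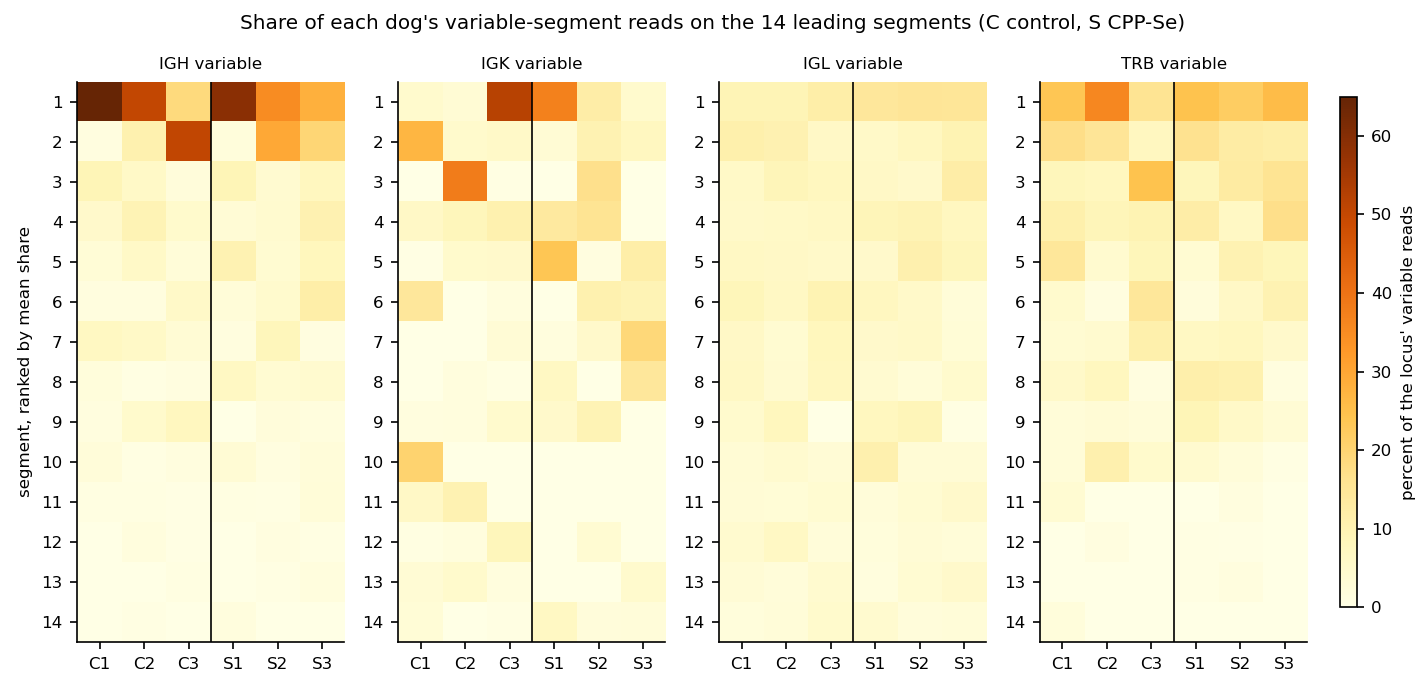
Percent of each dog's variable-segment reads (colour) on the 14 leading segments of IGH, IGK, IGL and TRB, ranked by their mean share over the 6 dogs. IGH is led by 1 or 2 segments, 4 different segments lead IGK over the 6 dogs, and the IGL leader holds 10.3% to 15% in every dog.

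The spread between dogs of a group was described for the variable segments beside that of all genes. The median within-group SD of log2(FPKM + 1) was 0.82 over the 13 tested IGH segments, 1.04 over 13 of IGK, 0.78 over 38 of IGL, 0.60 over 5 of TRA/TRD and 0.53 over 8 of TRB, against 0.31 over all tested genes. Among genes with a mean of 10 to 100 reads it was 0.65 over 7 IGH, 1.36 over 3 IGK, 0.75 over 18 IGL and 0.53 over 5 TRB segments and 0.36 for the 1 TRA/TRD segment, against 0.33 over all 4854 such genes. These genes were matched on reads, not on length or FPKM. The SD on this scale is smaller at low FPKM, and the part of this in the gap was not tested. The 5 tested constant members had a median of 0.61.

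Several constant genes of the same loci are not members because the table describes them as Ig chains without the words of the rule, and they are given here as neighbours, chosen after their values were seen. IGHM, the constant gene of IgM (chromosome 8, 72977146 to 72981735), had 811, 612 and 1033 FPKM in the controls and 1176, 1645 and 1043 with CPP-Se. The groups did not overlap, by a margin of 1033 to 1043, and the log2 fold change was 0.66 (SE 0.30, limma adjusted p = 0.338). The IgA constant gene ENSCAFG00000032358 (72850670 to 72852219), from the antibody of mucosal surfaces, had 903, 634 and 2353 FPKM in the controls and 1529, 1818 and 1683 with CPP-Se, with control replicate 3 the highest of all dogs (log2 fold change 0.60, SE 0.47, limma adjusted p = 0.574).

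The IgG model ENSCAFG00000030258 (72881377 to 73388517) had 69.6, 65.8 and 112 FPKM in the controls and 74.3, 135 and 52.0 with CPP-Se, and its span takes in part of the variable region. The IgE gene ENSCAFG00000018448 had 3.21, 2.62 and 0.347 FPKM in the controls and 7.89, 0.287 and 18.3 with CPP-Se, so that the lowest and the highest dog were both in the CPP-Se group (log2 fold change 1.14, SE 0.93, limma adjusted p = 0.591). The IgD gene ENSCAFG00000049475 ranged from 6.20 to 34.9 FPKM in the controls and from 11.8 to 62.5 with CPP-Se. IGKC had 272, 175 and 654 FPKM in the controls and 210, 646 and 285 with CPP-Se, with no order between the groups (log2 fold change 0.10, SE 0.56, limma adjusted p = 0.949). The lambda constant gene ENSCAFG00000031806 had 152, 120 and 436 FPKM in the controls and 260, 380 and 209 with CPP-Se (log2 fold change 0.46, SE 0.48, limma adjusted p = 0.684). A further lambda constant gene, ENSCAFG00000049609, was below the filter and not tested, with 0.416, 0.0636 and 0.555 FPKM in the controls and 1.65, 2.07 and 0.994 with CPP-Se. Its groups did not overlap, on 1 to 11 reads in the controls and 15 to 68 with CPP-Se.

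Of the heavy constant reads, IgA took 39.2% to 59.0% in the controls and 42.4% to 53.6% with CPP-Se, and IgM took 29.4% to 43.0% and 37.7% to 43.6%. The IgG model took 11.5% to 16.7% in the controls and 6.78% to 12.9% with CPP-Se. Each share was known to within 0.822 percentage points of counting error, and the groups overlapped for each of these isotypes. Kappa took 8.59%, 3.90% and 6.77% of the light chain variable reads in the controls and 3.05%, 3.04% and 3.59% with CPP-Se. Control replicate 2 (95% Wilson interval 3.04% to 4.98%) overlapped CPP-Se replicate 3 (2.66% to 4.81%) within counting error. Of the light chain constant reads, kappa took 34.9%, 32.8% and 34.3% in the controls and 17.3%, 33.2% and 27.7% with CPP-Se, with CPP-Se replicate 1 the lowest. Most kappa variable segments lie on unplaced scaffolds, and the part of this in the gap between the variable and the constant shares was not tested.

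Genes of the cells that carry these receptors were read from lists. Of the T cell list, 15 of 16 genes were found and tested, and 0 passed the adjusted test; 8 were higher and 1 lower at an unadjusted p under 0.05, against 6.87% and 9.10% of all tested genes, and the median log2 fold change was 0.74. CD3D, a chain of the CD3 complex that carries the receptor's signal, had 6.94, 7.78 and 6.93 FPKM in the controls and 16.6, 12.4 and 22.5 with CPP-Se (log2 fold change 1.11, SE 0.23, limma adjusted p = 0.138). CD3E had 30.2, 38.3 and 13.8 FPKM in the controls and 40.2, 42.5 and 63.2 with CPP-Se (log2 fold change 0.89, SE 0.37, limma adjusted p = 0.302). The CD3 zeta chain CD247 had a log2 fold change of 0.83 (SE 0.20, limma adjusted p = 0.161), while CD3G was nearly level at 0.10 (SE 0.27, limma adjusted p = 0.888).

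The coreceptor genes went in different directions. CD8A had 7.35, 12.3 and 7.47 FPKM in the controls and 14.9, 10.7 and 14.4 with CPP-Se, with overlapping groups. CD4 had 1019, 849 and 1256 FPKM in the controls and 627, 796 and 613 with CPP-Se (log2 fold change -0.61, SE 0.25, limma adjusted p = 0.297). It was the highest gene of the T cell list. The summed T cell list was 1098 to 1426 FPKM in the controls and 1002 to 1086 with CPP-Se, lower without overlap. In dogs CD4 is also carried by neutrophils, and the part of this in the CD4 values was not tested. Of the 7 tested neutrophil genes 4, and of the 8 monocyte genes 7, were lower at an unadjusted p under 0.05, against 9.10% of all tested genes. None passed the adjusted test. In the neutrophil list MMP9 went the other way, with a log2 fold change of 1.35 (SE 1.14, limma adjusted p = 0.606). S100A8 was nearly level at -0.18 (SE 0.43, limma adjusted p = 0.881). The summed monocyte list was 867 to 1011 FPKM in the controls and 409 to 479 with CPP-Se, and the summed neutrophil list was 2240 to 2997 and 1736 to 2227. In the list of NK and cytotoxic cells 3 of 8 tested genes were higher at an unadjusted p under 0.05, against 6.87% of all tested genes, and its sum was 33.4 to 56.4 FPKM in the controls and 66.5 to 104 with CPP-Se. Whether the shares of cell types differed between the groups was not tested, nor was their part in the T cell receptor values.

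B cell genes had mostly positive log2 fold changes as well. Of the B cell list, 11 of the 13 genes found were tested, 4 were higher at an unadjusted p under 0.05 (6.87% of all tested genes), 0 passed the adjusted test, and the median log2 fold change was 0.65. CD79A and CD79B encode the signalling chains of the B cell receptor. CD79A had 329, 304 and 233 FPKM in the controls and 385, 295 and 358 with CPP-Se (log2 fold change 0.26, SE 0.23, limma adjusted p = 0.613). CD79B had 47.8, 31.9 and 28.2 FPKM in the controls and 49.1, 80.8 and 53.3 with CPP-Se (0.75, SE 0.27, limma adjusted p = 0.261). MS4A1, which encodes CD20, had 2.63, 2.16 and 3.09 FPKM in the controls and 4.42, 3.62 and 5.76 with CPP-Se (0.62, SE 0.22, limma adjusted p = 0.25).

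In the plasma cell list 0 of 9 tested genes reached an unadjusted p under 0.05 (6.87% of all tested genes were higher and 9.10% lower), and the median log2 fold change was 0.21. JCHAIN, which joins IgM and IgA into polymers, had 130, 85.5 and 206 FPKM in the controls and 181, 214 and 209 with CPP-Se, with control replicate 3 within the CPP-Se range (0.60, SE 0.32, limma adjusted p = 0.402). MZB1, a chaperone of antibody secretion, had 9.65, 4.11 and 13.5 FPKM in the controls and 17.4, 14.7 and 8.18 with CPP-Se. Control replicate 3, the control dog with the highest IgA, IGKC and JCHAIN, also had the lowest TRB and TRA constant genes of all 6 dogs.

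The genes of receptor rearrangement were at the limit of detection in blood, which holds mature lymphocytes. Of 12 found, 8 were below the filter. RAG1 and RAG2, which cut the segments for joining, had 6 and 0 reads over the 6 dogs, and DNTT, which adds bases at the joins, had 13. LIG4, a ligase of the joining step that is active in all cells, had 1.18, 2.18 and 1.5 FPKM in the controls and 0.114, 0.767 and 0.896 with CPP-Se (log2 fold change -0.74, SE 0.31, limma adjusted p = 0.304).

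The red cell and platelet lists, markers of the other blood cells, had 2 of 8 and 0 of 4 tested genes at an unadjusted p under 0.05, both of the 2 higher with CPP-Se (6.87% of all tested genes were higher and 9.10% lower), and their summed levels overlapped between the groups, at 5977 to 13015 FPKM in the controls and 6443 to 11102 with CPP-Se for red cells and at 701 to 1480 and 499 to 1759 for platelets.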

How the data were processed

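Whole blood libraries of 3 control and 3 CPP-Se dogs, grouped by their titles, were compared. Per the labels and the study's methods, the authors used CASAVA 2.19, fastp 0.19.7, HISAT2 2.0.5 and featureCounts 1.5.0-p3 with the dog genome of Ensembl release 100, and deposited FPKM per gene; strand and overlap options are not given in the sources used here. FPKM multiplied by gene length gave whole reads for 100% of the values (tolerance 0.01 reads).

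The 9847 of 31512 genes whose mean reached 1 FPKM were tested in R 4.3.3 with limma 3.58.1 (lmFit, eBayes with trend, two-sided) on log2(FPKM + 1), with Benjamini-Hochberg adjustment. Fold changes on this scale understate those of low genes. A call needed a fold change of 1.5 or more besides an adjusted p under 0.05. The authors tested read counts; here the deposited FPKM were the main values, and the recovered reads served in alternatives. Tables and the negative binomial model, with the implied library size as an offset and a two-sided Wald test, were made with numpy 2.4.6, scipy 1.17.1 and pandas 2.3.3 (Python 3.11.15), and figures with matplotlib 3.10.9. Both tests were tried on simulated data. Locus sums and shares were given no test. The floor was 3 reads, and depth (6598173 to 8067034 reads on genes per dog) and 3 dogs per group limit precision.

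The members and lists were chosen with earlier results of these data known. Named were the constant members with a mean of at least 3 reads, the 3 other members per locus with the highest mean FPKM among those with a mean of at least 10 reads, any called member, the 5 largest changes per direction among tested members without overlap between the groups, and the CD3 chains, CD4, CD8A, CD79A, CD79B, MS4A1, JCHAIN and MZB1. Others were chosen after their values were seen. The alternatives were another pseudocount (0.1), other filters, 4 scalings, other eBayes settings, array weights, limma-voom, a replicate block, each dog left out and other member sets. Sequences of the segments were not used here. Some genes of the lists are not reported here.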

Additional observations from a re-analysis of the deposited data

How the results depend on the processing

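All results below come from the alternatives named here. No member was called by limma under any pseudocount, filter, scaling, eBayes setting, weighting or limma-voom fit tried, or by either narrower member set. With each dog left out in turn the count was 0 to 1, the 1 without CPP-Se replicate 2, and the negative binomial model, added after the data were seen, called 3. With the replicate number as a block the count stayed at 0, and the members at an unadjusted p under 0.05 went from 13 to 17. The deviations of same-numbered dogs from their group means had correlations of 0.02, -0.09 and -0.04. Pairs with different numbers had -0.08 to 0.11. The labels give no batch, so whether same-numbered dogs shared one cannot be decided here. The block changed no call of a member. Scaling by total reads on genes moved the median log2 fold change of all genes to 0.12, and without hemoglobin to 0.10. The members at an unadjusted p under 0.05 ranged from 7 to 19 over the dogs left out, with 7 at a filter of 10 mean reads and 8 by limma-voom.

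Log2 ratios of the locus sums ranged, over the dogs left out, from 0.78 to 1.15 for TRB, 0.40 to 0.91 for TRA/TRD, 0.53 to 1.19 for TRG, -1.32 to 0.00 for IGH, -1.43 to -0.72 for IGK and -0.03 to 0.51 for IGL. TRG moved to -0.42 without its most read member. Under the other scalings the log2 ratios of the locus sums moved by less than the spread between dogs, with IGH going from -0.44 to 0.01 and IGL from 0.27 to 0.58 by total reads on genes. The sums of single dogs moved more, the highest IGL sum with CPP-Se from 627 to 981 RPM and the highest IGH sum from 205 to 321 RPM by that scaling. The share differences (CPP-Se minus control, percentage points) moved with members by biotype alone to -8.75 for kappa among light chain variable reads, 5.13 for the leading IGH segment and -0.36 for the leading IGL segment. Over the dogs left out they were -4.45 to -2.11 for kappa, -23.7 to -8.20 for IGH, -21.1 to -8.32 for IGK, 3.28 to 4.02 for IGL and -5.97 to 0.04 for TRB.

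The IgG model (ENSCAFG00000030258) had log2 fold changes from -0.36 to 0.32 over the dogs left out, -0.0128 by the upper quartile and -0.0173 by limma-voom, and IGKC from -0.36 to 0.63 over the dogs left out, so neither has a direction. Over the dogs left out the other constant genes kept a log2 fold change above 0 but moved widely, from 0.30 to 2.26 for IgE (ENSCAFG00000018448), 0.20 to 1.14 for IgA (ENSCAFG00000032358), 0.20 to 1.37 for IgD (ENSCAFG00000049475), 0.09 to 1.02 for the lambda gene ENSCAFG00000031806, 0.48 to 1.43 for ENSCAFG00000030739, 0.76 to 1.56 for ENSCAFG00000047066, 0.31 to 1.06 for the delta gene ENSCAFG00000011098 and 0.45 to 0.97 for the alpha gene ENSCAFG00000025128. The cause of these differences was not tested. Depth limits the values of single members, since 50 had under 10 reads in all.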
